A study of Drosophila melanogaster with 58 samples.

Results

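Heads of male fruit flies fed gemfibrozil were set against heads of flies fed 6 other compounds in a screen of drugs that might find a new use in neuropsychiatry. All flies were adult unmated Oregon R males, a common wild-type laboratory strain, collected when 10 days old after 7 days on their food at 25 °C in vials of 30. Gemfibrozil had 4 arrays. The other compounds were levetiracetam, glucosamine hydrochloride, mannitol, olmesartan medoxonil, moxifloxacin hydrochloride and quinapril hydrochloride, with 4 arrays each except moxifloxacin, which had 2. These 26 arrays, out of 58 in the series, were chosen because their labels name a compound given without the seizure-inducing drug pentylenetetrazole. The 6 compounds were averaged with equal weight, and flies on normal food were kept out of the comparison and are quoted only as a further level. Doses, and the number of heads behind each RNA sample, are not stated in the sources used here.

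Gemfibrozil is a fibrate, a drug class that lowers blood triglycerides in people. In mammals fibrates activate the nuclear receptor PPAR-alpha, which turns on genes for fatty acid oxidation in mitochondria and peroxisomes. Flies have no direct counterpart of that receptor, but they share the enzymes of both oxidation pathways, and nuclear receptors such as Hnf4 govern fat use in the fly. A whole head holds brain, retina, antennae, muscle, cuticle and the head fat body, so a transcript can change through any of them, and in such a bulk sample fewer cells of a type and less RNA per cell cannot be told apart.

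Levels are log2 values made by RMA, a method that puts all arrays on 1 distribution, and differences are log2 gemfibrozil minus the mean of the 6 compounds, with the standard error of the fit. A transcript was called, and is said to have risen or fallen, at an adjusted p under 0.05 in limma. Of 18769 probe sets, 6402 were called (34.1%), with 3685 higher (19.6%) and 2717 lower (14.5%). The called differences were mostly small, with a median size of 0.24, and 22 probe sets rose and 78 fell by at least 2-fold. Counted by gene, with the brightest probe set standing for each of 11982 genes, 25.2% rose and 14.2% fell, and the median difference over all genes was 0.03. These shares of all genes are the background for every count of list members below. All 4 gemfibrozil arrays lay above all 22 others for 2.06% of probe sets and 2.76% of genes, and below them for 1.96% of probe sets and 1.87% of genes. Setting each compound in turn against the other 6 called between 5220 and 8920 probe sets, so a count of this size was not particular to gemfibrozil. The p-values measure the spread between arrays of a group, which may be technical, since the labels do not say that arrays came from separate vials. When the 6 group means were used as the units in place of the arrays, limma called 0 of 18769 probe sets, with 555 at an unadjusted p under 0.05. A call therefore says that the gemfibrozil arrays differ from the average of these 6 groups, not that gemfibrozil differs from compounds at large.

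All 26 arrays correlated best with an array of their own group, and array medians ran from 3.73 to 3.81. The 5′ minus 3′ signal of the control transcripts, which falls when RNA or its copies are shortened, averaged -6.16 ± 0.15 in gemfibrozil (SD, n = 4), against a range of -6.27 to -5.33 over the 22 others. The difference of -0.44 had an adjusted p of 0.00981 (two-sided exact permutation test, adjusted over 11 measures), and the moxifloxacin mean was -6.21. This permutation test, here and below, counts arrays as independent, although they cluster by compound. The bioB minus bioC signal of the spiked-in controls fell into 2 levels, and the upper level held 4 of 4 gemfibrozil arrays and 8 of 22 others, among them every mannitol and moxifloxacin array. Values adjusted for this 5′ to 3′ signal as a covariate in the fit, or against only the mannitol and moxifloxacin groups, are given beside the results they move most. Each group has its own mean in that fit, so the slope of the covariate comes only from the spread within groups. Of the tissue marker lists, only the muscle list differed from the other 22 arrays without overlap. The retina list had a median level of 10.79 to 10.85 in gemfibrozil and 10.35 to 11.13 in the others, so genes of the eye were bright on all arrays. Testis and accessory gland genes had a median of 3.54 to 3.62 in gemfibrozil and 2.62 to 4.60 in the others, with 5.94 ± 0.17 on normal food (SD, n = 4), and the part of these tissues in other results was not tested.

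The largest rises of single-gene probe sets without overlap between arrays were in heat shock genes. Heat shock proteins are chaperones that hold or refold damaged proteins, and the small ones and the Hsp70 class are switched on in flies by heat, toxins and other protein stress. Hsp27, a small heat shock protein, had log2 levels of 8.62, 8.44, 8.57 and 8.45 in the gemfibrozil arrays, against a lowest of 5.86, a median of 6.55 and a highest of 7.22 in the other 22. Every gemfibrozil array was thus more than a full log2 unit above the highest other array, and the difference was 2.01 ± 0.060 (adjusted p = 1.64e-31, limma), or 4.04-fold. Hsp68, an Hsp70-class chaperone made under stress, had 7.53, 7.62, 7.53 and 7.63 with gemfibrozil, against 4.52, 5.60 and 6.75 as the lowest, median and highest of the others. Its difference was 2.00 ± 0.068 (adjusted p = 2.78e-29), and no array of another compound reached the gemfibrozil range. Hsp26, a second small heat shock protein, had 8.51, 8.42, 8.41 and 8.47 with gemfibrozil and 5.57, 6.57 and 7.72 as the lowest, median and highest of the others, a difference of 1.97 ± 0.058 (adjusted p = 6.23e-32).

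The Hsp70 genes themselves lie in near-identical copies, and the array's probe sets for them carry several gene symbols, so no value can be assigned to 1 copy. They were looked at after the values of other heat shock genes had been seen. The brightest of these shared probe sets had levels of 10.37, 10.39, 10.44 and 10.41 with gemfibrozil, against 5.22, 6.87 and 9.31 as the lowest, median and highest of the other 22 arrays. Its difference of 3.41 ± 0.052, or 10.6-fold, was larger than that of any single-gene heat shock probe set named here. The other bright ones differed by 2.83 ± 0.066 and 2.44 ± 0.046, and for all 3 the gemfibrozil arrays lay above all 22 others. A further 2, dim on the arrays compared, were not called, with differences of -0.035 and -0.0030. Of 2 probe sets listed for both Hsp22, a small heat shock protein, and CG4456, the bright one rose by 1.99 ± 0.052, again above all 22 arrays, and the dim one differed by 0.00073 and was not called.

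**Figure D1:**
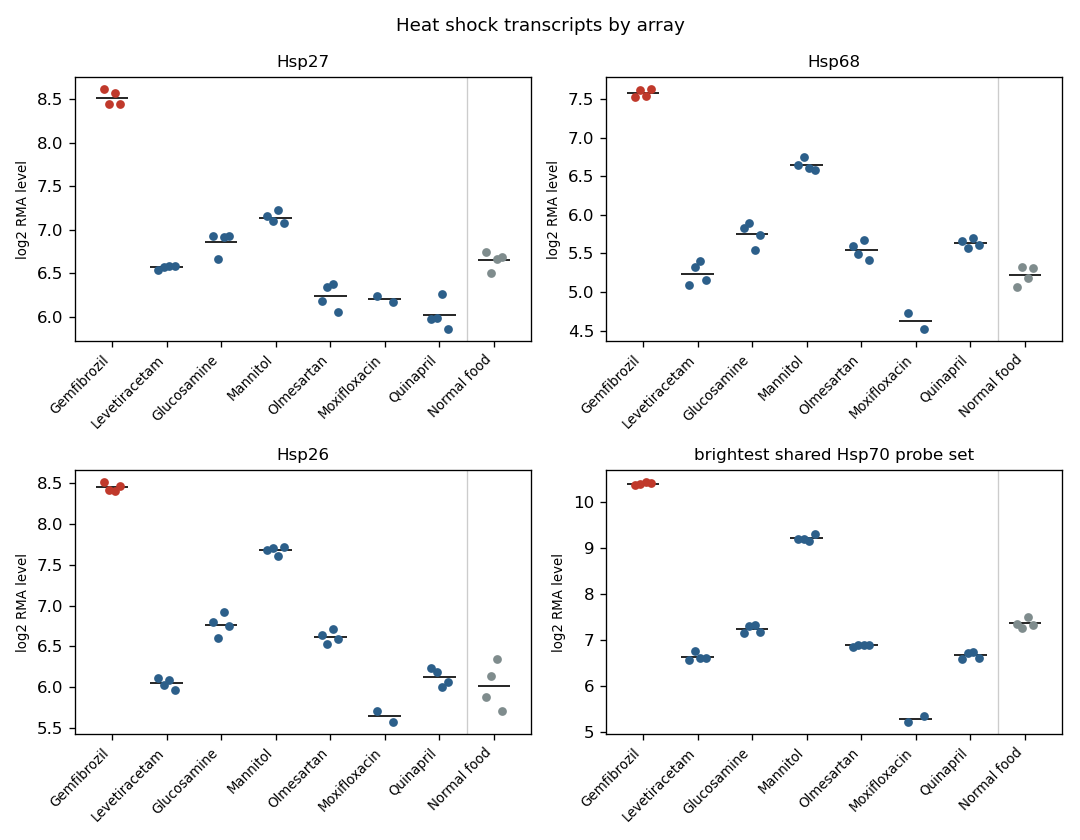
Log2 RMA levels of Hsp27, Hsp68, Hsp26 and the brightest shared Hsp70 probe set on each array (points) with the group mean (line), gemfibrozil at the left, the 6 compounds after it and normal food, which is not part of the comparison, at the right. Gemfibrozil stands above all other groups in each panel, and mannitol is the nearest.

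Of 11 measured heat shock and chaperone genes on the list, 9 rose, 1 fell and 1 was not called, against 25.2% and 14.2% of all genes, with a median difference of 0.24. The rise was uneven. Beside the 3 above, l(2)efl, a small heat shock protein of muscle, rose by 0.50 ± 0.026 and DnaJ-1, an Hsp40 co-chaperone, by 0.37 ± 0.025. The member that fell was Hsp60A, the mitochondrial chaperonin, by 0.18 (chosen after its values were seen). Outside the list, CG4461, of the small heat shock protein family, rose by 0.95 ± 0.033. Hsc70-1, an Hsp70 relative, rose by 0.86 ± 0.036, and its other 2 probe sets rose by 0.57 and 0.89. Npl4, a cofactor of the segregase that pulls ubiquitin-tagged proteins out of complexes, rose by 0.83 ± 0.037. For CG4461, Hsc70-1 and Npl4 all 4 gemfibrozil arrays lay above the 22 others. The proteasome, which degrades tagged proteins, did not share this direction, with 2 of 40 subunits higher and 8 lower, or 4 higher and 3 lower when adjusted for the 5′ to 3′ signal.

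The size of the rise depended on the compound gemfibrozil was set against. Hsp27 was higher by 1.38 against mannitol and by 1.66 against glucosamine, and by 1.95, 2.28, 2.31 and 2.50 against levetiracetam, olmesartan, moxifloxacin and quinapril. Hsp26 ran from 0.77 against mannitol to 2.81 against moxifloxacin, and Hsp68 from 0.93 to 2.95 against the same pair. All of these single-compound differences were called. Flies on normal food had 6.65 for Hsp27, 5.22 for Hsp68 and 6.02 for Hsp26, within the range of the 6 compounds. Among all 15 groups of the series gemfibrozil had the highest Hsp27 and Hsp68, while Hsp26 averaged 8.45 with gemfibrozil and 8.76 with pentylenetetrazole alone. Adjusted for the 5′ to 3′ signal, the differences were 2.01 for Hsp27, 2.06 for Hsp68 and 2.05 for Hsp26.

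Muscle transcripts rose as well. Scp1, a sarcoplasmic calcium-binding protein, had log2 levels of 10.76, 10.68, 10.62 and 10.67 with gemfibrozil, against 7.56, 8.92 and 10.15 as the lowest, median and highest of the other arrays. The groups did not overlap, and the difference was 1.74 ± 0.031 (adjusted p = 1.38e-40, limma), or 3.34-fold. Act79B, an actin of tubular muscles, had 9.47, 9.43, 9.44 and 9.46 with gemfibrozil and 7.36, 8.21 and 8.77 as the lowest, median and highest of the others, a difference of 1.31 ± 0.037 (adjusted p = 2.23e-32). TpnC41C, a troponin C that makes the thin filament respond to calcium, had 9.56, 9.54, 9.50 and 9.47 with gemfibrozil, against 7.53, 8.21 and 9.16, and differed by 1.16 ± 0.028 (adjusted p = 2.1e-35). The gemfibrozil arrays lay close together, with an SD of 0.056 for Scp1, 0.019 for Act79B and 0.041 for TpnC41C (n = 4), while the means of the 6 other groups had SDs of 0.92, 0.46 and 0.60.

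**Figure D2:**
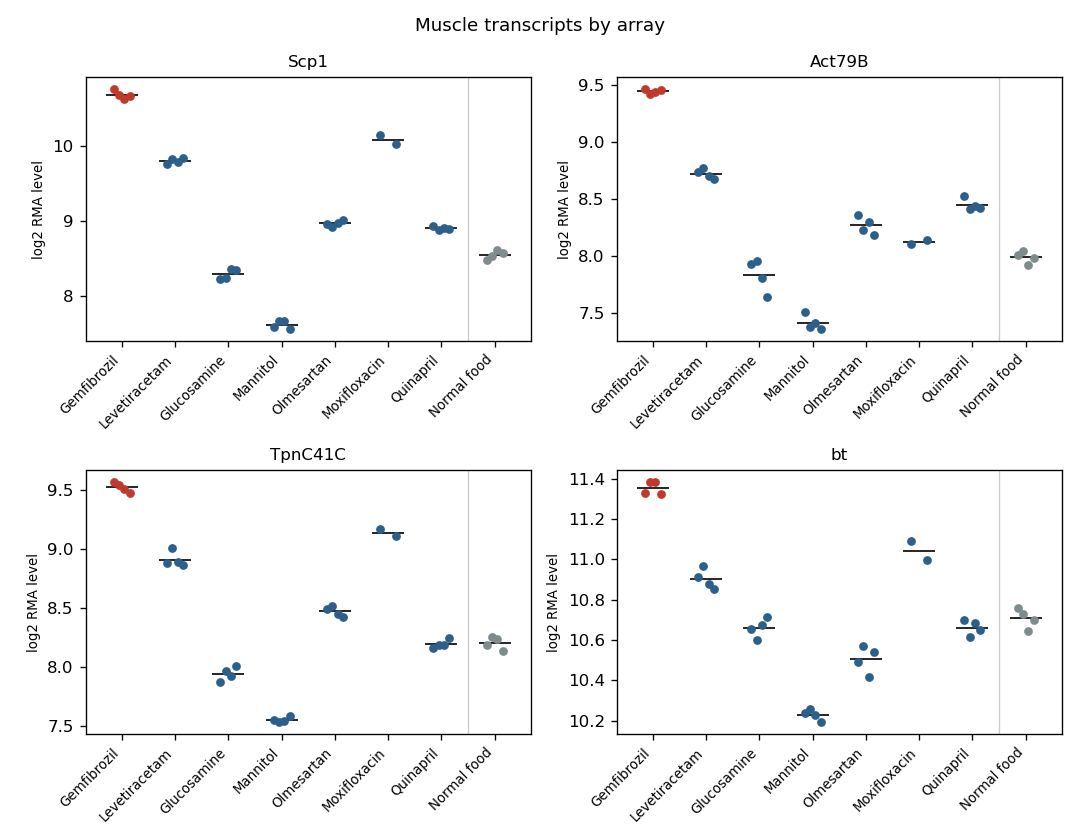
Log2 RMA levels of Scp1, Act79B, TpnC41C and bt on each array (points) with the group mean (line), gemfibrozil at the left and normal food, which is not part of the comparison, at the right. The gemfibrozil arrays are the highest of the 7 compounds in each panel, while mannitol is the lowest.

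On the muscle marker list, 20 of 26 genes rose (76.9%), 1 fell (3.85%) and 5 were not called. The shares of all genes were 25.2% and 14.2%, and the list's median difference was 0.42. Of the 26, 12 had all gemfibrozil arrays above the 22 others, against 2.76% of all genes. bt, the giant titin-like protein projectin, rose by 0.69 ± 0.029 and Act87E, another muscle actin, by 0.62 ± 0.034, both without overlap. up, troponin T, rose by 0.74 ± 0.053, but its gemfibrozil arrays overlapped the others, since it was lower by 0.50 against quinapril. The member that fell was Msp300, which anchors nuclei in muscle fibres, by 0.47 (chosen after its values were seen), and among its dimmer probe sets 1 fell by 1.05 and another rose by 0.35. As 1 value per array, the median of the list was 9.25 to 9.28 with gemfibrozil and 8.17 to 8.95 in the others. That difference of 0.67 had a two-sided exact permutation p of 0.000134, the smallest that 4 against 22 arrays can give, and 0.00147 after adjustment over 11 measures. This test counts arrays as independent, although they cluster by compound, and the list was chosen with earlier results of these data known. Normal food had 8.63, within the range of the other compounds.

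The size of the muscle rise depended on the compound too. Scp1 was higher by 3.06 against mannitol and 2.39 against glucosamine, but by only 0.88 against levetiracetam and 0.60 against moxifloxacin. TpnC41C ran from 0.39 against moxifloxacin to 1.97 against mannitol. The order was not that of Hsp26 and Hsp68, for which mannitol stood nearest to gemfibrozil and moxifloxacin farthest. Against mannitol and moxifloxacin alone 21 muscle genes rose and 1 fell.

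Several genes of neurons were among the greatest falls. mura, a RING-finger protein needed for memory in flies, had log2 levels of 8.08, 7.99, 8.11 and 8.14 with gemfibrozil, against 8.80, 9.69 and 10.30 as the lowest, median and highest of the other arrays. It fell by 1.54 ± 0.036 (adjusted p = 6.13e-36, limma), the greatest fall among single-gene probe sets without overlap. DopEcR, a membrane receptor for dopamine and the steroid ecdysone, had 7.73, 7.74, 7.74 and 7.72 with gemfibrozil and 8.19, 9.41 and 9.53 in the others, and fell by 1.43 ± 0.033 (adjusted p = 4.41e-36). Its lowest other arrays were those of moxifloxacin, while most others lay above 9.

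jeb, the secreted ligand of the receptor kinase Alk, fell by 1.5 ± 0.066. Cngl, a cyclic nucleotide-gated channel relative, fell by 1.36, rsh, the memory gene radish, by 1.35, and the adhesion proteins Dscam2 and dpr9 by 1.24 and 1.22. Some of the genes in this paragraph have other, dim probe sets that were not called, 1 of them for rsh, 2 for Cngl, 3 for Dscam2 and 1 each for dpr9 and cic. Outside neuronal functions, cic, the repressor capicua, fell by 1.22, vig, an RNA-binding protein, by 1.15, and ftz-f1, a nuclear receptor, by 1.16, with its second probe set lower by 1.25 (called).

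**Figure D3:**
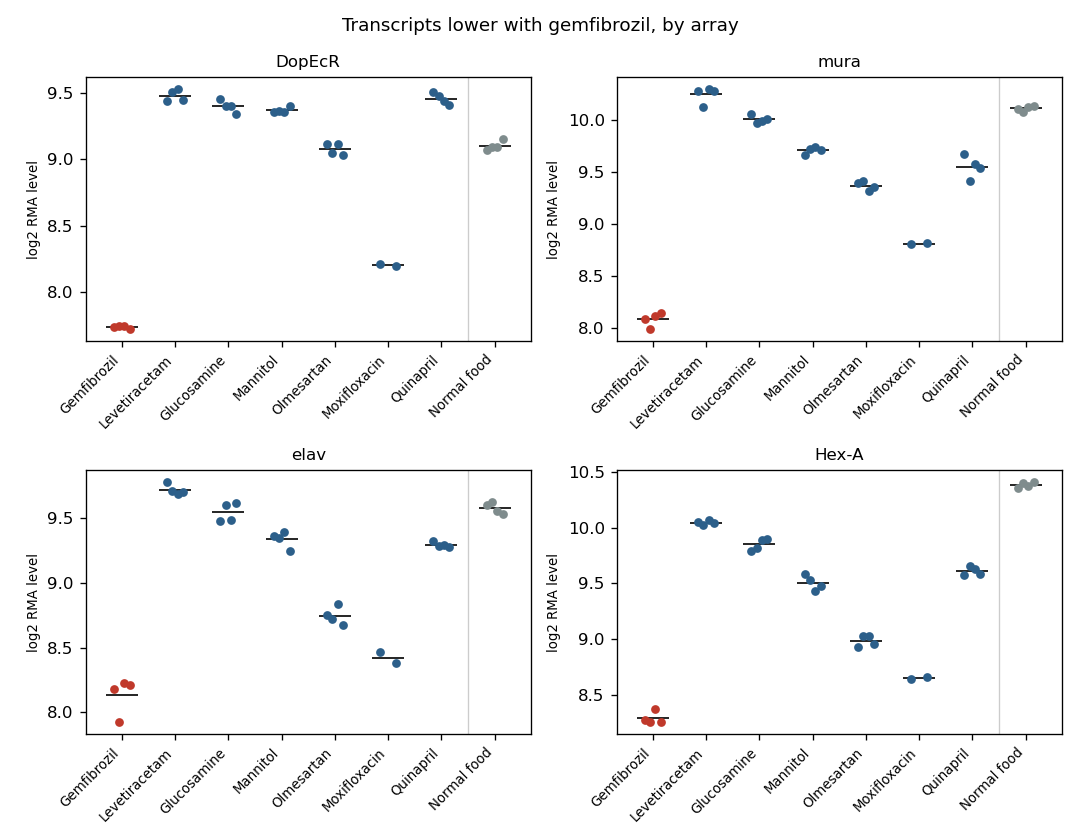
Log2 RMA levels of DopEcR, mura, elav and Hex-A on each array (points) with the group mean (line), gemfibrozil at the left and normal food, which is not part of the comparison, at the right. The gemfibrozil arrays are below every other array in all 4 panels, and the moxifloxacin arrays come next.

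The pan-neuronal list was mixed but leaned down, with 3 of 15 genes higher (20%), 10 lower (66.7%) and 2 not called. The shares of all genes were 25.2% and 14.2%, and the median difference of the list was -0.24. elav, the RNA-binding protein used as the standard marker of fly neurons, had 8.18, 7.93, 8.23 and 8.21 with gemfibrozil, against 8.38, 9.34 and 9.78 as the lowest, median and highest of the others. It fell by 1.04 ± 0.039 (adjusted p = 1.31e-27, limma), with no overlap. nSyb, the neuronal synaptobrevin of synaptic vesicles, had 7.54, 7.53, 7.68 and 7.62 with gemfibrozil and 7.41, 8.86 and 9.18 in the others, so the groups overlapped. It fell by 0.96 ± 0.043 (adjusted p = 2.28e-24), yet was 0.10 higher against moxifloxacin. futsch, a microtubule protein of axons, fell by 0.71, and para, the main sodium channel, by 0.51 with overlap.

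The neuronal lists held genes of both directions. The median of the pan-neuronal list was 9.11 to 9.18 with gemfibrozil and 8.75 to 9.78 in the others (two-sided exact permutation p = 0.189, 0.346 adjusted over 11 measures). Of 27 synaptic vesicle and active zone genes 14 rose (51.9%) and 8 fell (29.6%), against 25.2% and 14.2% of all genes, with a median of 0.12. For the dynamin gene shi the brightest probe set fell by 1.0 ± 0.030 and another by 0.64, while the third differed by 0.065 and was not called.

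The moxifloxacin arrays, with a 5′ to 3′ signal close to that of gemfibrozil, were also the nearest to gemfibrozil for most of these falls. DopEcR was lower by 0.47 against moxifloxacin and by 1.34 to 1.75 against the other 5, and elav by 0.29 against moxifloxacin. Adjusted for the 5′ to 3′ signal, the differences were -1.52 for mura, -1.39 for DopEcR and -1.09 for elav. Normal food had a 5′ to 3′ signal of -6.42 ± 0.22 (SD, n = 4), lower than gemfibrozil, and levels of 10.11 for mura, 9.10 for DopEcR and 9.58 for elav, all above the gemfibrozil arrays. The part of the 5′ to 3′ signal in these falls was not tested.

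Receptors for transmitters went both ways. Of 32 GABA, glutamate and acetylcholine genes, 12 rose (37.5%) and 6 fell (18.8%), against 25.2% and 14.2% of all genes. GluClalpha, the glutamate-gated chloride channel, fell by 1.18 ± 0.047, and another of its probe sets by 1.14, but the third bright one rose by 0.51 ± 0.063. Among 190 genes with at least 2 probe sets of mean level 6 or more, GluClalpha was 1 of 2 with opposite calls of at least 0.5, and the other was Sarm (chosen after its values were seen). nAChRalpha4, a nicotinic acetylcholine receptor subunit, fell by 1.12 ± 0.047 without overlap. Rdl, the main GABA-A receptor subunit, fell by 0.49, yet was 0.40 higher against moxifloxacin, and against mannitol and moxifloxacin together it differed by -0.01 and was not called. Lcch3, a GABA receptor subunit relative, and clumsy, a glutamate receptor of the kainate class, each rose by 0.44, with all 4 gemfibrozil arrays above the others.

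Among 27 monoamine genes 10 rose (37.0%) and 8 fell (29.6%), against 25.2% and 14.2% of all genes, with a median difference of 0.04. Of those that fell, 4 lay below all 22 other arrays, against 1.87% of all genes. These were receptors and a transporter. Beside DopEcR, the dopamine receptor Dop1R1 fell by 1.08 ± 0.054 and the serotonin receptor 5-HT7 by 0.75 ± 0.063. Vmat, which loads monoamines into vesicles, fell by 1.0 ± 0.038, while another of its bright probe sets differed by 0.00 and was not called. Octbeta1R, an octopamine receptor, fell by 0.64 with overlap. Of 30 voltage-gated and potassium channel genes 11 rose (36.7%) and 11 fell (36.7%), against the same shares of all genes. The channel subunit genes Ca-beta, NaCP60E and Hk fell by 0.84, 0.73 and 0.63, and Teh4, an accessory subunit of the sodium channel, rose by 0.56.

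Glial markers leaned down, with 5 of 25 higher (20%), 11 lower (44%) and 9 not called, against 25.2% and 14.2% of all genes. The median of the genes' differences was -0.04. The list's median level, which follows the genes that rank in the middle of each array, was 7.84 to 8.02 with gemfibrozil and 7.91 to 8.45 in the others. That level differed by -0.26 (two-sided exact permutation p = 0.00174, 0.00957 adjusted over 11 measures), although the ranges overlap. The test counts arrays as independent, although they cluster by compound, and this list too was chosen with earlier results known. axo, a protein secreted by glia, fell by 0.63, but was 0.31 higher against moxifloxacin, and against mannitol and moxifloxacin together its difference of -0.21 was not called.

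Hex-A, the main hexokinase, was among the greatest falls. It had log2 levels of 8.28, 8.26, 8.37 and 8.26 with gemfibrozil, against 8.65, 9.59 and 10.07 as the lowest, median and highest of the others. It fell by 1.15 ± 0.027 (adjusted p = 1.45e-35, limma), and normal food had 10.39. Glut1, a sugar transporter, fell by 0.94 ± 0.041, as did its second bright probe set by 0.93. The lists that hold these genes did not fall as a whole. Of 27 glycolysis, trehalose and gluconeogenesis genes, 7 were higher (25.9%) and 9 lower (33.3%), against 25.2% and 14.2% of all genes. Of 36 sugar, amino acid and organic anion transporters, 10 were higher (27.8%) and 4 lower (11.1%), near those shares.

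Genes of cytosolic translation and respiration were modestly higher. Of 41 cytosolic ribosomal proteins, 30 rose (73.2%), 0 fell and 11 were not called, against 25.2% and 14.2% of all genes. Their median difference was 0.16, and 1 was higher against all 6 compounds singly. RpS7 rose by 0.57 ± 0.039 and RpL28 by 0.44 ± 0.027, both with overlap, because quinapril and, for RpL28, mannitol stood higher than gemfibrozil. RpL28 was 1.40 higher against moxifloxacin and 0.28 lower against quinapril. Of 75 oxidative phosphorylation subunits, 44 rose (58.7%) and 6 fell (8%), against the same shares of all genes, with a median of 0.13. Against all 6 compounds singly, 1 was higher and 2 lower. ATPsynC, the membrane ring subunit of ATP synthase, rose by 0.35 ± 0.026 and was above all 22 arrays. UQCR-Q, a complex III subunit, rose by 0.37 with overlap. UQCR-11L and UQCR-11, also of complex III, fell by 0.98 ± 0.048 and 0.52 ± 0.065. Of 69 mitochondrial ribosomal proteins 18 rose (26.1%) and 7 fell (10.1%), near the shares of all genes (25.2% and 14.2%), and adjusted for the 5′ to 3′ signal, 33 rose and 3 fell.

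The oxidation genes that fibrates act on in mammals did not rise together. Of 19 genes of mitochondrial beta-oxidation, 2 rose (10.5%), 10 fell (52.6%) and 7 were not called, against 25.2% and 14.2% of all genes. The median difference was -0.11. yip2, a thiolase that cuts the shortened fatty acid chain, had log2 levels of 9.56, 9.65, 9.61 and 9.56 with gemfibrozil, against 9.44, 9.96 and 10.39 as the lowest, median and highest of the others. The groups overlapped, and the fall of 0.31 ± 0.031 (adjusted p = 1.13e-11, limma) was called singly against mannitol, olmesartan, quinapril and glucosamine, while gemfibrozil was 0.11 higher against levetiracetam. Normal food had 8.78 for yip2, below all gemfibrozil arrays. Arc42, an acyl-CoA dehydrogenase, fell by 0.21 and Mtpbeta, the beta subunit of the trifunctional protein, by 0.14. Dci, an isomerase for unsaturated fatty acids, was the exception, higher by 0.17 ± 0.032 with all 4 gemfibrozil arrays above the 22 others. Adjusted for the 5′ to 3′ signal, only 4 of the 19 fell, the median was -0.01, and Mtpbeta was no longer called.

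Most peroxisomal genes were not called, with 1 of 20 higher (5%), 4 lower (20%), 15 not called and a median difference of 0.01. Of all genes 25.2% were higher and 14.2% lower. Cat, the catalase that clears hydrogen peroxide in peroxisomes, fell by 0.24 ± 0.038. Mfe2, a multifunctional enzyme of peroxisomal oxidation, fell by 0.19 ± 0.033. Pex3, needed to build the peroxisome membrane, was the single riser, at 0.19 ± 0.055, and with the 5′ to 3′ adjustment 6 rose and 4 fell. Among 19 acyl-CoA synthetases, which activate fatty acids, 4 rose (21.1%) and 2 fell (10.5%), near the shares of all genes (25.2% and 14.2%). Acsx1L rose by 0.34 and hll, dim on these arrays, fell by 0.32, a fall not called with the 5′ to 3′ adjustment.

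The other lipid lists showed no common direction. Fatty acid synthesis had 6 of 31 genes higher (19.4%) and 4 lower (12.9%), near the shares of all genes (25.2% and 14.2%). Triglyceride storage and lipases had 8 of 39 higher (20.5%) and 10 lower (25.6%). That list also holds CCT1 and CCT2, whose symbols are those of chaperonin subunits. Lipid carriers and receptors had 9 of 25 higher (36%) and 7 lower (28%). The lipophorin receptor LpR1 fell by 0.31 ± 0.024, while LpR2 rose by 0.25 ± 0.090 (adjusted p = 0.0246, limma). The LpR2 value turned to -0.031 with the 5′ to 3′ covariate and to -0.13 against mannitol and moxifloxacin, neither called. Npc2b, a sterol carrier, rose by 0.39 on average, with 1.29 against moxifloxacin and -0.41 against quinapril.

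Among nuclear receptors and metabolic regulators 10 of 27 rose (37.0%) and 3 fell (11.1%), against 25.2% and 14.2% of all genes. The median difference was 0.07. Hnf4, the receptor that governs fat use during starvation in flies, rose by 0.28, with all gemfibrozil arrays above the others, and by 0.19 with the 5′ to 3′ adjustment. sug, the sugar-induced factor sugarbabe, rose by 0.45 ± 0.068. ftz-f1 (above), Hr3 by 0.33 and foxo by 0.42 were the 3 that fell. Hr39, a receptor related to ftz-f1, was not called at its brightest probe set (0.07), while others of its probe sets fell by 1.07 and 0.45. Of 19 insulin, FOXO and starvation genes 3 rose (15.8%) and 8 fell (42.1%), against the same shares of all genes. The insulin receptor InR fell by 0.61 ± 0.039 and its downstream kinase S6k by 0.59 ± 0.035, both below all 22 other arrays. Akt, a kinase between them, fell by 0.37 with overlap.

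Genes of drug detoxification did not rise together. On the cytochrome P450 list, which also holds the cyclophilins Cyp1 and Cyp40, 14 of 83 genes rose and 15 fell, with a median of -0.01. Glutathione S-transferases had 4 of 34 higher and 12 lower, and UDP-glycosyltransferases 5 of 35 higher and 8 lower, where 25.2% of all genes rose and 14.2% fell. With the 5′ to 3′ adjustment 7 glutathione S-transferases rose and 8 fell, and 5 UDP-glycosyltransferases rose and 3 fell. Against mannitol and moxifloxacin alone 14 genes of the P450 list rose and 28 fell. GstD3 fell by 0.24 and GstE4, a dim probe set, by 0.34. Cyp12b2, a mitochondrial P450, rose by 0.43 ± 0.043. Cyp4g1, which makes cuticular hydrocarbons in oenocytes, had log2 levels of 7.39, 7.25, 7.44 and 7.36 with gemfibrozil, inside a range of 3.86 to 9.39 over the others. Its difference of 0.74 ± 0.087 (adjusted p = 7.56e-10) joined values of 2.95 against glucosamine, 3.30 against mannitol and 1.89 against quinapril to -1.94 against olmesartan and -1.95 against moxifloxacin.

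Immune genes leaned down. Of 23 antimicrobial peptide and Toll or Imd effector genes, 1 rose (4.35%), 10 fell (43.5%) and 12 were not called. The median was -0.15, while 25.2% of all genes rose and 14.2% fell. Only 1 of the 23 was lower against all 6 compounds singly. DptB, a diptericin of the Imd pathway, had 7.37, 7.27, 7.31 and 7.35 with gemfibrozil, against 7.28, 7.86 and 9.09 as the lowest, median and highest of the others. It fell by 0.67 ± 0.047 (adjusted p = 4.62e-17, limma), ranging from -0.09 against levetiracetam to -1.71 against olmesartan, while normal food had 6.16, below gemfibrozil. Drs, the antifungal peptide drosomycin of the Toll pathway, fell by 0.52 ± 0.037 and was below all 22 arrays. Def, CecB and PGRP-SB1, 2 further peptides and a recognition protein, fell by 0.60, 0.59 and 0.58 with overlap. The riser was Rel, the Imd transcription factor, by 0.25 (chosen after its values were seen).

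Markers of haemocytes, the blood cells of flies, and of the fat body, the main source of these peptides, also leaned down. Lower were 10 of 24 (41.7%) and 11 of 26 genes (42.3%), against 14.2% of all genes. Higher were 3 (12.5%) and 2 (7.69%), against 25.2% of all genes. Against all 6 compounds singly, 4 haemocyte and 2 fat body genes were lower. The fat body list also holds Cyp4g1, the oenocyte gene named above. The haemocyte receptors NimC1 and eater fell by 0.74 and 0.51, Hml by 0.43 and the collagen gene Col4a1 by 0.56. The median level of the haemocyte list was 5.16 to 5.44 with gemfibrozil and 4.98 to 5.86 in the others (two-sided exact permutation p = 0.306 before adjustment). That of the fat body list was 8.61 to 8.72 with gemfibrozil and 8.15 to 9.59 in the others (p = 0.168, same exact test). The part of either tissue in the immune falls was not tested. fit, a fat body signal of the fly head, fell by 0.78 ± 0.033.

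Stress genes other than chaperones did not rise together. Of 25 oxidative stress genes 2 rose (8%) and 9 fell (36%), against 25.2% and 14.2% of all genes. With the 5′ to 3′ adjustment 2 rose and 4 fell. MtnD, a metal-binding metallothionein, had log2 levels of 6.10, 5.83, 6.06 and 5.52 with gemfibrozil, against 6.20, 6.64 and 7.28 as the lowest, median and highest of the others, and fell by 0.85 ± 0.059 (adjusted p = 4.26e-17, limma). It lay below every other array, and gemfibrozil had the lowest mean of all 15 groups. Methionine and one-carbon genes had 1 of 18 higher (5.56%) and 8 lower (44.4%), or 3 and 5 with the 5′ to 3′ adjustment.

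In the clock, Clk, the activating transcription factor, fell by 0.74 ± 0.041 and per, the repressor it drives, rose by 0.53 ± 0.054, each without overlap. The clock kinase dco fell by 0.43 without overlap and the repressor cwo by 0.37 with overlap. Of 13 clock genes 4 rose (30.8%) and 6 fell (46.2%), against 25.2% and 14.2% of all genes. That list also holds Jhe, whose symbol is that of juvenile hormone esterase. The time of day at collection is not stated in the sources used here. Retina markers had 9 of 21 higher (42.9%) and 5 lower (23.8%), against the same shares of all genes. eys, which keeps the light-sensing organelles apart, fell by 0.88 ± 0.042. The phototransduction genes rdgB, a lipid transfer protein, and rdgA, a lipid kinase, fell by 0.54 and 0.53, and these 3 genes were below all 22 arrays. Of 161 odorant binding and antennal genes 10 rose (6.21%), 30 fell (18.6%) and 121 were not called, with a median difference of -0.02. All genes had 25.2% higher and 14.2% lower. Among those that fell most, Obp83b, a5, a10 and Obp19a, of which the first and last encode odorant binding proteins, fell by 0.94, 0.73, 0.72 and 0.69 on average. Those averages came largely from olmesartan, against which they were lower by 2.75, 2.15, 2.06 and 2.37, while against mannitol Obp83b and a5 differed by 0.03 and -0.03.

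Reproductive tract genes gave the largest single-gene difference of the named lists. EbpII, an ejaculatory bulb protein, had 6.31, 6.48, 6.21 and 6.23 with gemfibrozil, against 1.74, 2.71 and 7.24 as the lowest, median and highest of the others, and rose by 2.62 ± 0.086 (adjusted p = 8.24e-30). The accessory gland genes Acp98AB, Mst57Da and SP, the sex peptide, rose by 2.33, 1.67 and 1.19, and the bulb gene Ebp by 2.05. None of these differences held against every compound. Acp98AB was higher by 3.99 to 4.46 against glucosamine, mannitol, olmesartan and quinapril, but lower by 1.99 against levetiracetam and by 1.08 against moxifloxacin, and normal food had 10.22. These tissues lie in the abdomen. Of 44 genes on the list 14 rose (31.8%) and 3 fell (6.82%), against 25.2% and 14.2% of all genes. Against mannitol and moxifloxacin 7 rose and 16 fell. The list also holds svp, which is counted with the nuclear receptors too. The summed level of the list was 12.62 to 12.69 with gemfibrozil, 12.02 to 12.93 in the others and 13.26 to 13.29 on normal food, and its array median had a two-sided exact permutation p of 0.274.

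**Figure D4:**
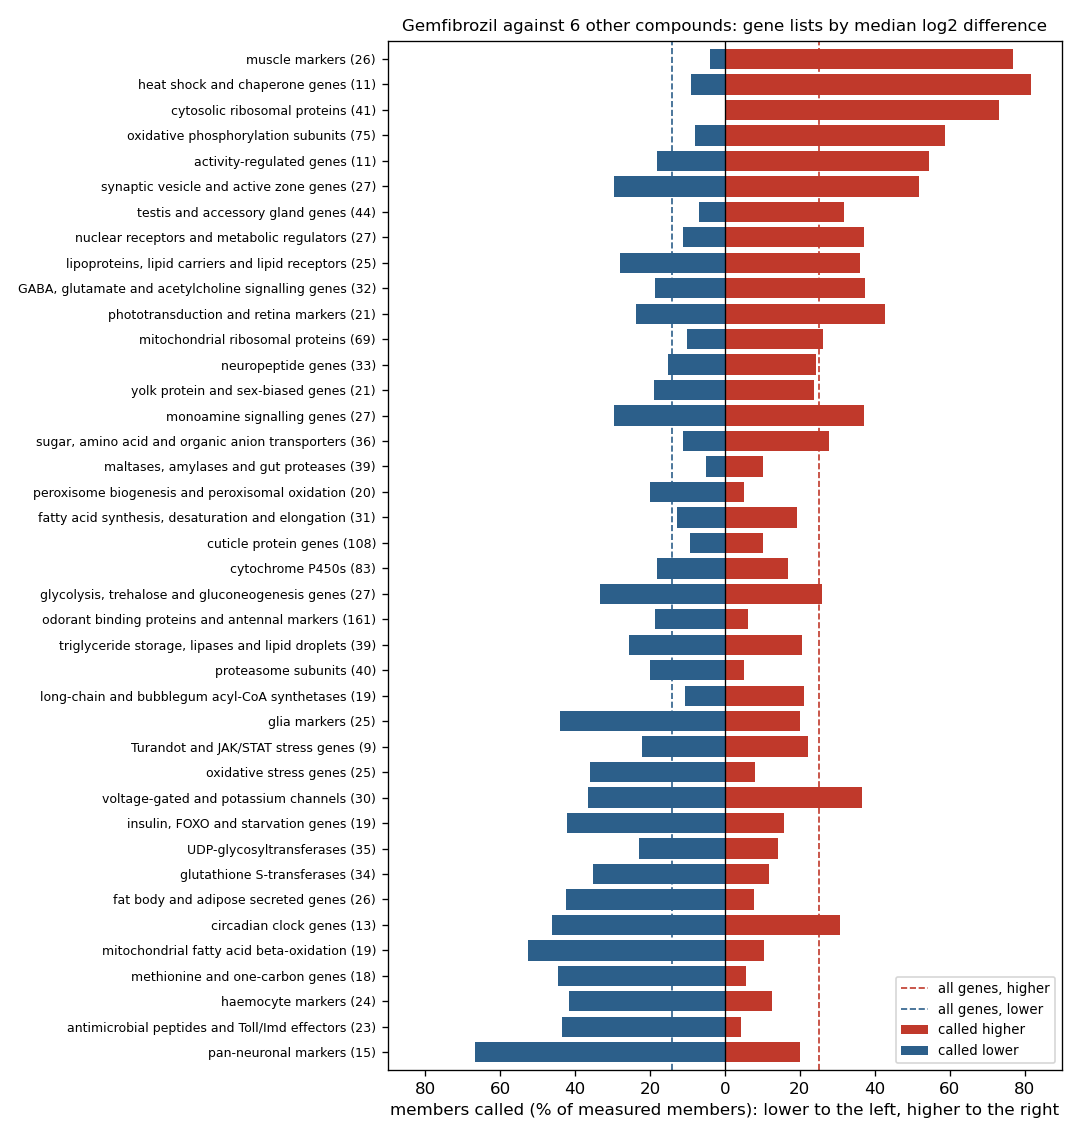
Share of the measured members of each gene list that rose (right) or fell (left) with gemfibrozil, in percent, with list sizes in brackets, lists ordered by median log2 difference and dashed lines at the shares of all genes (25.2% and 14.2%). Muscle and heat shock genes stand at the top and pan-neuronal, antimicrobial and haemocyte genes at the bottom.

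Against each compound singly, gemfibrozil called 36.9% of probe sets for levetiracetam, 28.8% for glucosamine, 36.6% for mannitol, 36.4% for olmesartan, 38% for moxifloxacin and 37.5% for quinapril. These comparisons share the 4 gemfibrozil arrays. The same direction was called against all 6 compounds for 533 of 11982 genes (4.45%), with 298 higher and 235 lower. Of the 26 muscle genes 12 were higher against all 6, and so were 4 of 11 heat shock genes, while 3 of 15 pan-neuronal and 4 of 27 monoamine genes were lower against all 6. In the other direction, 4 of 32 GABA, glutamate and acetylcholine genes and 4 of 30 channel genes were higher against all 6, with 2 and 1 lower. The genes CG8519, CG15196 and CG4213, to which no role is given here, were also higher against all 6, by 1.19 ± 0.082, 0.82 ± 0.10 and 0.80 ± 0.073 on average, and had their highest mean of all 15 groups with gemfibrozil. No list of beta-oxidation, peroxisomal or acyl-CoA synthetase genes had a member lower against all 6, and Dci was the 1 member higher against all 6.

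**Figure D5:**
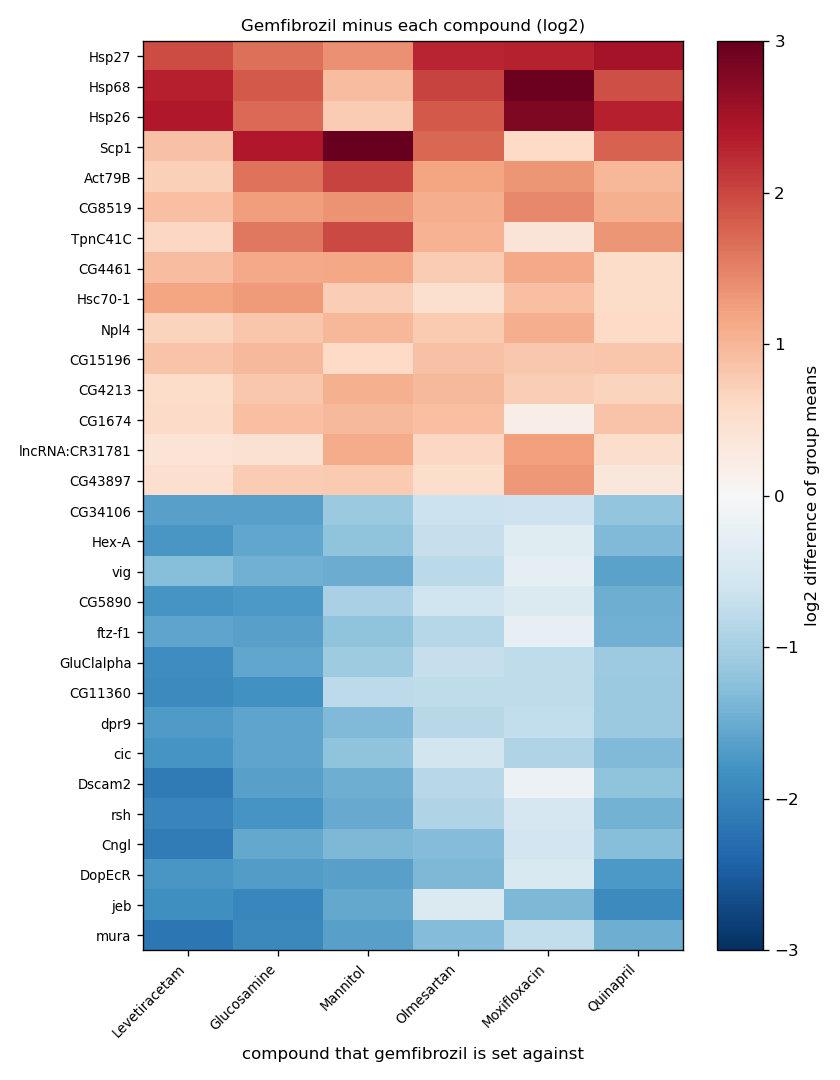
Log2 difference of gemfibrozil minus each of the 6 compounds (columns) for the 15 greatest rises and 15 greatest falls among single-gene probe sets whose groups of arrays do not overlap (rows), red for higher and blue for lower with gemfibrozil. The heat shock rows are palest against mannitol, the Scp1 row is darkest there at 3.06, and most rows that fell are palest against moxifloxacin.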

How the data were processed

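Total RNA (250 ng) from heads was labelled with a 3′ IVT kit and hybridised to Affymetrix Drosophila Genome 2.0 arrays, per the labels' protocols. The deposited table holds log2 values that the authors made with RMA according to the submitters' processing notes (limma is named there too, both without versions). RMA removes background and equalises array distributions, so a shift shared by most transcripts is removed and dim probe sets carry compressed differences. The values hold no test against background, and the number of arrays limits the precision. Of 18952 probe sets 183 controls were left out. In the platform annotation 13647 of the rest carry 1 symbol, 402 several and 4720 none; 13544 were matched to RefSeq genes.

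All 58 arrays entered 1 fit of group means in limma (version 3.58.1, under R 4.3.3; 43 residual and 3.88 prior degrees of freedom), with Benjamini-Hochberg adjustment within each contrast. It was tested on simulated data. Array-level measures were tested by exact permutation over 26 arrays. Figures used Python 3.11.15 and matplotlib 3.10.9.

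Members and lists were chosen with earlier results of these data known. Named genes were drawn from the 15 greatest rises and falls without overlap between groups, up to 5 called members of each list with the greatest difference, and any member of the beta-oxidation, peroxisome, acyl-CoA synthetase, lipoprotein and nuclear receptor lists; exceptions are marked. Alternatives were a robust prior with a variance trend, repeated quantile normalization, dropping the dimmest 40% of probe sets, only the 26 arrays, the replicate number as a block, an adjustment for the 5′ minus 3′ control signal, other reference groups, group means as units, averaging all probe sets of a gene and leaving out each array.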

Additional observations from a re-analysis of the deposited data

Results flagged for a closer look

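In groups of 4 arrays, 250 sets of values were searched for a single array far from the other 3, and chance alone marks about 1 in 20. There were 9 such values, and leaving out the array concerned changed no call of the 7 genes among them. Within gemfibrozil, elav had 7.93 in replicate 2 against 8.18 to 8.23 in the other 3 arrays, Mfe2 had 8.65 in replicate 2 against 8.59 to 8.60, and InR had 7.62 in replicate 4 against 7.71 to 7.72. Hsp27 had 6.67 in glucosamine replicate 2 against 6.92 to 6.93, and DopEcR had 9.41 in mannitol replicate 4 against 9.36 in the others. mura had 10.13 in levetiracetam replicate 2 against 10.28 to 10.30, and DptB had 8.90 in olmesartan replicate 3 against 9.07 to 9.09. The median of the muscle list was 8.17 in mannitol replicate 4 against 8.27 to 8.28. The 5′ minus 3′ control signal was -5.33 in mannitol replicate 2 against -5.56 to -5.55.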

How the results depend on the processing

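With the 6 group means as units, limma called 0 probe sets in place of 6402, 0 higher, 0 lower, 0 higher or lower by at least 2-fold, and 0 genes of the lists; all 104 named genes lost their call, 39 of them at an unadjusted p under 0.05. The count of probe sets at least 2-fold lower was 78, and became 47 against mannitol and moxifloxacin, 49 without glucosamine in the mean and 124 without moxifloxacin. LpR2 turned to -0.031 with the 5′ to 3′ covariate and -0.13 against mannitol and moxifloxacin, and lost its call under 5 other settings. Mtpbeta, hll and GstE4 lost theirs with the covariate, Rdl, axo and Obp19a against mannitol and moxifloxacin, and Pex3 without levetiracetam or moxifloxacin. Mtpbeta also lost it without mannitol, olmesartan or gemfibrozil replicate 2. The causes were not tested. Without 1 gemfibrozil array 5583 to 5829 probe sets were called, and without 1 array of another compound 6303 to 6437. With the replicate number as a block 6297 were called and no named gene lost its call. Deviations from the group means were correlated between same-numbered arrays of different groups, giving -0.13 to 0.14 over 72 pairs of arrays. By these deviations 0 of 4 gemfibrozil arrays correlated best with an array of their own number, so the numbers were not taken as pairs. The size of differences at dim probe sets is limited by signal over background, which these values do not give.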
